A study of Mus musculus with 15 samples.

Results

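The 10 genes described here are the peroxisome proliferator-activated receptor genes *Pparg* and *Ppard* and 8 genes that carry long-chain fatty acids into mitochondrial oxidation: *Acsl1*, *Cpt1a*, *Slc25a20*, *Cpt2*, *Acadvl*, *Acadl*, *Acadm* and *Hadha*. They were taken by gene symbol from the 54390 genes of the deposited count tables, each symbol matched 1 gene, and 9 of the 10 had enough counts to be tested. The libraries came from BV2 cells, an immortalized mouse microglial line, that were WT or Trem2-/- and that were either left in media alone (non-foamy) or given 20 μg/ml soluble cholesterol overnight (foamy). Trem2-/- non-foamy cells gave 3 libraries and each of the other groups gave 4. Trem2 is a lipid-sensing surface receptor of microglia and macrophages. Trem2-/- cells descend from a single Cas9-expressing BV2 clone that received a guide against Trem2, so genotype and clonal origin cannot be told apart. The number of Trem2-/- clones behind the libraries, and whether the WT cells carried Cas9, were not given in the sources used here. The cholesterol was complexed with methyl-beta-cyclodextrin, which the media-alone cells did not receive. Nothing states that the libraries were separate cultures, so p-values measure the spread between these libraries, which may be technical.

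PPARs are nuclear receptors that bind DNA as partners of RXR at a direct repeat of a short motif and are activated by fatty acids and their derivatives. *Ppara*, *Ppard* and *Pparg* share many targets, among them genes of fatty acid oxidation, lipid droplets and lipid uptake. Oxidation of a long-chain fatty acid begins with its activation to an acyl-CoA, continues with transfer to carnitine at the outer mitochondrial membrane, exchange across the inner membrane and transfer back to CoA, and ends with repeated rounds of dehydrogenation, hydration, a further dehydrogenation and thiolysis in the matrix.

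Each library held 23538963 to 41683825 counted reads. Levels are given as counts-per-million (CPM) after scaling with TMM factors, which ran from 0.918 to 1.11 and were lower in Trem2-/- libraries (0.918 to 0.983) than in all but 1 of the WT libraries (0.966 to 1.11). WT non-foamy replicate 3 stood apart from the other 14 libraries on the second principal component (−61.7, the others −12.2 to 25.8). *Trem2* itself was counted in every library, with mean levels of 354 ± 41.2, 373 ± 26.4, 222 ± 8.79 and 224 ± 4.56 CPM (s.d., n = 4, 4, 3 and 4) in non-foamy WT, foamy WT, non-foamy Trem2-/- and foamy Trem2-/- cells, all Trem2-/- libraries lying under all WT libraries; counts per gene do not show the edit itself. Of 13 microglia and macrophage markers, 10 were at 1 CPM or more in every library, while *Tmem119*, which marks resident microglia, stayed under 1 CPM throughout. *Cx3cr1* and *P2ry12* were at 0.149 to 0.696 and 0.505 to 0.928 CPM in Trem2-/- libraries. In WT libraries they were at 0.795 to 1.963 and 1.288 to 2.465 CPM. All 4 fibroblast markers were at 0, and the markers of neurons, astrocytes, adipocytes, hepatocytes and lymphocytes stayed under 1 CPM, while those of oligodendrocytes summed to 0.817 to 2.57 CPM. The summed level of the microglia and macrophage markers was 4069 to 5024 CPM in WT and 5951 to 6225 CPM in Trem2-/- libraries. In bulk samples, fewer cells of a type and less RNA per cell cannot be told apart.

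Per kilobase of annotated exon, the matrix enzymes other than *Acadl* ranked highest of the 10 genes, and of those counted the receptors ranked lowest. The length was that of all annotated exons of a gene joined, 2391 bases for *Cpt2* and 10483 for *Acsl1*. It can exceed the length of any 1 transcript, so the order across genes also depends on the annotation. *Acadm* was at 39.98 RPKM (CPM per kilobase of exon; mean over 15 libraries), at the 91.7th percentile of tested genes. *Acadvl* (17.5 RPKM), *Hadha* (14.03) and *Cpt2* (10.7) followed. *Acsl1* (4.32), *Cpt1a* (4.04) and *Slc25a20* (3.55) lay near the middle of all tested genes, at the 53.2nd, 51.7th and 48.8th percentiles. *Ppard* was at 1.36 RPKM (30.6th percentile) and *Pparg* at 0.0698 RPKM (2.45th percentile). *Acadl* had 0 counts in every library. The plot of levels per kilobase shows that every library of *Acadm* (36.8 to 44.1 RPKM) lay above every library of the entry genes, of which the highest was *Cpt1a* at 6.57 RPKM.

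**Figure D1:**
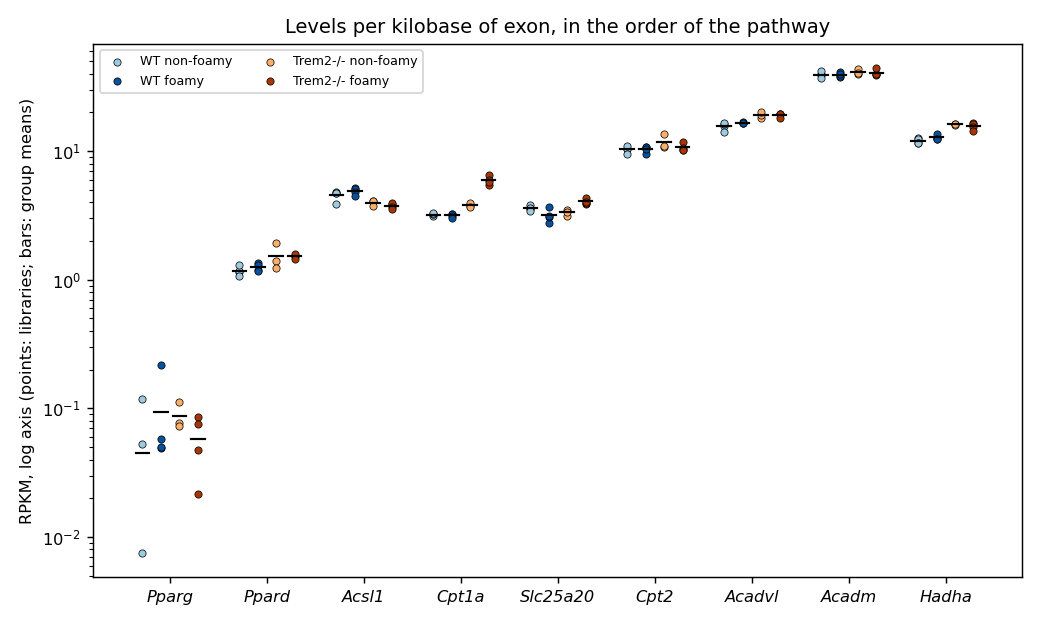
Levels in RPKM (log axis) of the 9 genes with any counts, in the order of the pathway; points are libraries, horizontal bars are group means, and the WT non-foamy library with 0 *Pparg* reads is not drawn. *Acadm* lies highest (mean 39.98 RPKM) and *Pparg* lowest (0.0698 RPKM), and the Trem2-/- foamy libraries of *Cpt1a* and *Slc25a20* lie above all their others.

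Cholesterol changed 1 of the 10 genes, *Cpt1a*, in Trem2-/- cells and none in WT cells, while 5 of the 10 differed between the genotypes without cholesterol and 5 with it. A gene was called when its edgeR p-value, adjusted over the 14237 tested genes, was under 0.05. Between the genotypes, 43.6% of all tested genes were called without cholesterol and 30.2% with it. In WT cells, cholesterol changed 0 of the 9 tested genes by edgeR and 0 by DESeq2, with 1 at an unadjusted p under 0.05, where 2.8% of all tested genes were called. The libraries of WT foamy and non-foamy cells overlapped for all 9, where 9.71% of all tested genes did not overlap. In Trem2-/- cells, 1 of the 9 was called, *Cpt1a*, and it was higher; of all tested genes 0.14% were called and 0.105% were called higher. *Cpt1a* and *Slc25a20* were the 2 genes of the 9 whose Trem2-/- foamy libraries all lay above the Trem2-/- non-foamy libraries, where 9.26% of all tested genes did not overlap.

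Between the genotypes without cholesterol, 5 of the 9 genes were called (43.6% of all tested genes), 4 of them higher in Trem2-/- cells (21% of all tested genes) and 1 lower (22.6%). The higher ones were *Ppard*, *Cpt1a*, *Acadvl* and *Hadha*, and the lower one was *Acsl1*. The libraries did not overlap for 3 of the 9, where the share of all tested genes was 46.1%. With cholesterol, 5 of the 9 were called (30.2% of all tested genes), 4 higher (14.3%) and 1 lower (15.9%). *Cpt1a*, *Acadvl*, *Hadha* and *Slc25a20* were higher and *Acsl1* was again lower. The libraries did not overlap for 6 of the 9, 5 higher and 1 lower, where the share of all tested genes was 28.8%. The median log2 fold change of the 9 was 0.24 without cholesterol and 0.21 with it, against 0.02 and 0.00 over all tested genes. Scaling by total counts alone moved the median of all tested genes to −0.13 in both comparisons and left 1 of the 9 called higher and 1 lower in each: *Hadha* and *Acsl1* without cholesterol, *Cpt1a* and *Acsl1* with it. With that scaling the split of all called genes moved from 2985 higher and 3222 lower to 1820 higher and 4379 lower without cholesterol, and from 2036 and 2261 to 1115 and 3666 with it. The summed microglia and macrophage markers were also higher in Trem2-/- cells (8 of 13 called higher and 2 lower, *Cx3cr1* and *P2ry12*, in each genotype comparison), and their part in these differences was not tested.

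The responses of the 2 genotypes to cholesterol differed for 2 of the 9 genes, *Cpt1a* and *Slc25a20*, both with the larger response in Trem2-/- cells; of all tested genes 3.64% were called, 1.99% in this direction and 1.64% in the other. The difference for *Slc25a20* was lost when any 1 of 14 of the 15 libraries was left out, as described with that gene.

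**Figure D2:**
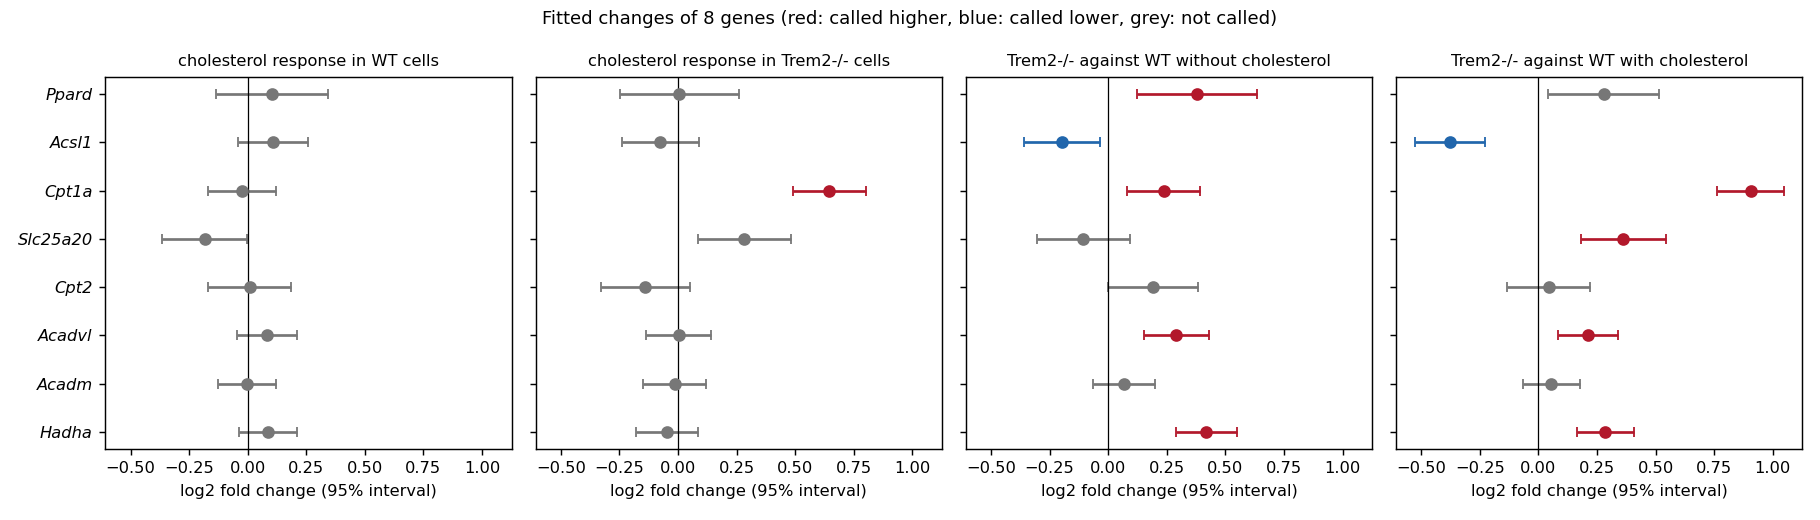
Fitted log2 fold changes with 95% intervals for 8 of the 10 genes in the 4 pairwise comparisons; *Pparg*, whose intervals are wide, and *Acadl*, with 0 counts, are left out. *Cpt1a* is the one gene called for cholesterol, in Trem2-/- cells (0.64). In both genotype comparisons *Cpt1a*, *Acadvl* and *Hadha* are called higher and *Acsl1* lower. *Ppard* is called higher only without cholesterol and *Slc25a20* only with it.

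Of the receptors, *Ppard* was the one clearly present, and it was higher in Trem2-/- cells without cholesterol. *Ppard* (chromosome 17, 28232700 to 28301474, GRCm38) encodes PPARδ, the broadly expressed member of the family. It was at 8.66, 8.73, 9.77 and 8.05 CPM in the 4 WT non-foamy libraries and at 10.1, 9.76, 8.96 and 8.84 CPM in the WT foamy ones. In Trem2-/- cells it was at 10.5, 9.31 and 14.4 CPM in non-foamy and at 11.5, 11.6, 11.9 and 10.8 CPM in foamy libraries. Trem2-/- non-foamy replicate 3 was high, 1 Trem2-/- non-foamy library lay within the WT range, and all 4 Trem2-/- foamy libraries lay above all WT libraries. Trem2-/- cells differed from WT cells by 0.38 on the log2 scale without cholesterol (adjusted p = 0.0165 by edgeR, s.e. 0.12) and by 0.28 with it (adjusted p = 0.0679, s.e. 0.11). The first call was lost without Trem2-/- non-foamy replicate 3 (0.17, adjusted p = 0.264) and without WT non-foamy replicate 4 (0.33, adjusted p = 0.0519). It was also lost with total counts alone (adjusted p = 0.163 by edgeR). The second was gained in a fit of the compared libraries alone (adjusted p = 0.0394). Cholesterol gave log2 fold changes of 0.10 in WT (95% interval −0.13 to 0.34) and 0.01 in Trem2-/- cells (−0.25 to 0.26).

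*Pparg* (chromosome 6, 115360951 to 115490399) encodes PPARγ, known for adipocyte differentiation and for lipid handling in macrophages. It had 0 to 21 reads per library, 99 in all, and 1 library had 0. WT non-foamy libraries were at 0.156, 0, 0.352 and 0.0223 CPM and WT foamy libraries at 0.145, 0.147, 0.642 and 0.172 CPM. Trem2-/- non-foamy libraries were at 0.228, 0.217 and 0.331 CPM and foamy ones at 0.139, 0.254, 0.0633 and 0.223 CPM. The 4 groups overlapped, and WT foamy replicate 3 held the highest level. At this depth no difference was detectable: the 95% interval of Trem2-/- against WT ran from −0.60 to 2.84 on the log2 scale without cholesterol and from −2.18 to 0.84 with it, and that of the cholesterol response from −0.40 to 2.77 in WT and from −2.26 to 1.04 in Trem2-/- cells. *Ppara*, the family member that governs fatty acid oxidation in liver, had 0 counts in all 15 libraries. Per kilobase of exon, *Ppard* was at 1.36 RPKM and *Pparg* at 0.0698 RPKM, so *Ppard* was the receptor transcript with a level that could be compared between the groups.

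*Cpt1a* (ENSMUSG00000024900; chromosome 19, 3322334 to 3385733, plus strand) encodes carnitine palmitoyltransferase 1A, the step at the outer mitochondrial membrane that malonyl-CoA inhibits. It had the largest called differences of the 10 in each comparison with foamy cells that called any of them, while without cholesterol its genotype difference was the smallest of the 4 genes called higher. WT non-foamy libraries were at 23.8, 24.6, 24.7 and 25.1 CPM and WT foamy libraries at 24.8, 24.7, 23.9 and 23.2 CPM. Trem2-/- non-foamy libraries were at 28.4, 30.1 and 28.3 CPM and Trem2-/- foamy libraries at 41.7, 50.2, 45.2 and 43.9 CPM. The WT groups overlapped, every Trem2-/- non-foamy library lay above every WT library, and every Trem2-/- foamy library lay above every Trem2-/- non-foamy one. Group means were 24.6 ± 0.538, 24.1 ± 0.734, 28.9 ± 0.973 and 45.2 ± 3.60 CPM (s.d., n = 4, 4, 3 and 4) in the same order.

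With cholesterol *Cpt1a* rose 1.56-fold in Trem2-/- cells (0.64 on the log2 scale, 95% interval 0.49 to 0.80, adjusted p = 7.76e-05 by edgeR), which ranked 3 by p-value among the 14237 tested genes. In WT cells the log2 fold change was −0.02 (95% interval −0.17 to 0.12, adjusted p = 0.905). The difference between these responses was 0.67 (adjusted p = 0.000505, s.e. 0.10). Foamy Trem2-/- cells held 1.87 times the *Cpt1a* of foamy WT cells (0.91 on the log2 scale, adjusted p = 1.92e-09, s.e. 0.07), and non-foamy Trem2-/- cells 1.18 times that of non-foamy WT cells (0.24, adjusted p = 0.0135, s.e. 0.07). The response in Trem2-/- cells, the genotype difference with cholesterol and the difference of the responses were called under every alternative, with log2 fold changes of 0.59 to 0.68, 0.85 to 0.94 and 0.62 to 0.71 as each library was left out. The genotype difference without cholesterol was lost without Trem2-/- non-foamy replicate 2 (0.21, adjusted p = 0.0665), with no filter on low counts (adjusted p = 0.0656) and with total counts alone (0.10, adjusted p = 0.412).

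**Figure D3:**
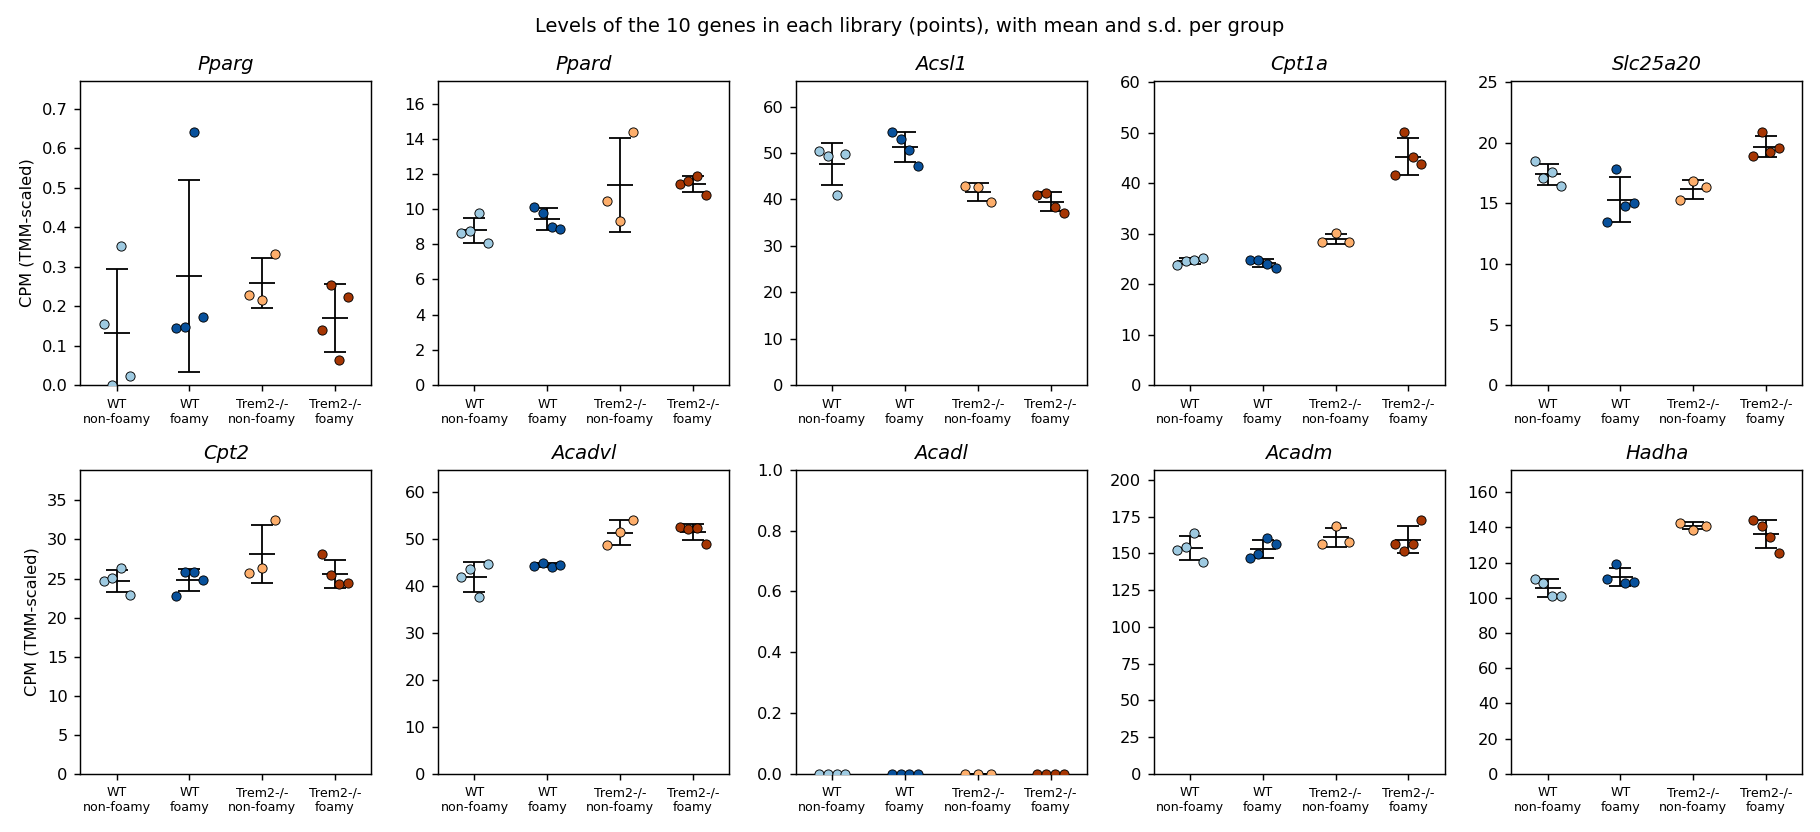
CPM of the 10 genes in each of the 15 libraries (points), with the group mean and s.d. as bars; each panel has its own linear axis from 0. The 4 Trem2-/- foamy libraries of *Cpt1a* (41.7 to 50.2 CPM) lie above the 11 others (23.2 to 30.1 CPM), and *Acadl* is at 0 throughout.

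The start-site sequences of the 2 genes whose responses differed between the genotypes are given because PPAR-RXR pairs recognize the hexamer AGGTCA, repeated in the same orientation with 1 base between the copies (an arrangement named DR1). The windows run from 250 bases before to 50 bases after the RefSeq start (GRCm38.p6), 5′ to 3′ on the gene's strand. Capitals mark a hexamer match, read on the opposite strand, in *Cpt1a* (chr19:3323051-3323350, plus strand) and the best DR1 match in *Slc25a20* (chr9:108661886-108662185, plus strand).
Cpt1a: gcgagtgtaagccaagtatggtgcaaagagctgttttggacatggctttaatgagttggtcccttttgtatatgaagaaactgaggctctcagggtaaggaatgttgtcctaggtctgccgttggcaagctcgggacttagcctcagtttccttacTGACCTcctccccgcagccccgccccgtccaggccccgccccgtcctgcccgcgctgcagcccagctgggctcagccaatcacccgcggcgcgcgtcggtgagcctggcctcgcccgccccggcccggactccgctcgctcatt
Slc25a20: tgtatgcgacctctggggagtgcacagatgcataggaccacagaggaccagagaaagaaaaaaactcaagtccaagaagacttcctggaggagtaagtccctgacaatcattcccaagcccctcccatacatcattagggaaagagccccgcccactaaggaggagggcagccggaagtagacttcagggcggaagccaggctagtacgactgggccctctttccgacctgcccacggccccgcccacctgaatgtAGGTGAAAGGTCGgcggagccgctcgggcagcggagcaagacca
The *Cpt1a* match starts at position −94 relative to the start site, and the nearest approach to a DR1 in this window had 4 mismatches over both copies. The *Slc25a20* match starts at position 6 and departs from a DR1 at 2 bases. On both strands, 16.3% of 32817 RefSeq promoter windows of 300 bases held the hexamer, 3.86% held a DR1 with at most 2 mismatches, 0.555% with at most 1 and 0.0396% with none; a DR1 match holds the hexamer where a copy is exact. Of the other genes of the set, *Acadm* (position −249), *Acadvl* (−87) and *Pparg* (2 of its 3 windows, −28 and −9) held the hexamer, and *Acsl1*, *Cpt2*, *Acadl*, *Hadha* and *Ppard* held neither. These are matches of letters within 300 bases, and binding was not measured here.

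*Slc25a20* (chromosome 9, 108662088 to 108684641) encodes the carnitine-acylcarnitine translocase, which exchanges acylcarnitine for carnitine across the inner membrane. It was at 18.5, 17.1, 17.6 and 16.4 CPM in WT non-foamy and at 13.5, 17.9, 14.8 and 15.1 CPM in WT foamy libraries. Trem2-/- non-foamy libraries were at 15.3, 16.9 and 16.4 CPM and foamy ones at 18.9, 20.9, 19.2 and 19.6 CPM. Every Trem2-/- foamy library lay above the other 11, which overlapped. Foamy Trem2-/- cells had more of it than foamy WT cells (0.36 on the log2 scale, adjusted p = 0.00311 by edgeR, s.e. 0.09), while without cholesterol the value was −0.11 (adjusted p = 0.395). The responses themselves were not called, at 0.28 (unadjusted p = 0.00724, adjusted p = 0.596) in Trem2-/- and −0.18 (unadjusted p = 0.0480, adjusted p = 0.299) in WT cells, but they differed by 0.47 (adjusted p = 0.0465, s.e. 0.13). This difference was the least secure call of the set: leaving out any library but WT foamy replicate 2 ended it (0.41 to 0.55 on the log2 scale, adjusted p up to 0.135). Of the transcript's stretches of 50 bases, 5.61% also occur in other annotated transcripts, and how reads with several matches were counted is not stated.

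*Cpt2* (chromosome 4, 107903981 to 107923610) encodes carnitine palmitoyltransferase 2, which returns the acyl group to CoA in the matrix. It was at 22.8 to 26.3 CPM in WT non-foamy, 22.8 to 25.8 in WT foamy, 25.7 to 32.4 in Trem2-/- non-foamy and 24.2 to 28.2 CPM in Trem2-/- foamy libraries. All groups overlapped and no comparison was called. The 95% interval of its cholesterol response in Trem2-/- cells ran from −0.33 to 0.05, which does not overlap the interval of *Cpt1a* in the same cells (0.49 to 0.80). The ratio of *Cpt1a* to *Cpt2* in RPKM was 0.312 ± 0.0219, 0.305 ± 0.0236 and 0.325 ± 0.0452 in non-foamy WT, foamy WT and non-foamy Trem2-/- cells and 0.557 ± 0.0664 in foamy Trem2-/- cells (s.d., n = 4, 4, 3 and 4). The lowest Trem2-/- foamy ratio (0.463) lay above the highest of all other libraries (0.357).

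*Acsl1* (chromosome 8, 46471037 to 46536051) encodes long-chain acyl-CoA synthetase 1, which activates fatty acids at the start of the pathway. It was the one gene of the 10 lower in Trem2-/- cells. WT non-foamy libraries were at 50.5, 49.3, 40.9 and 49.8 CPM and WT foamy ones at 54.6, 53.1, 50.6 and 47.1 CPM. Trem2-/- non-foamy libraries were at 42.8, 42.6 and 39.4 CPM and Trem2-/- foamy ones at 41.0, 41.4, 38.5 and 37.1 CPM. With cholesterol all Trem2-/- libraries lay under all WT libraries, and without it WT non-foamy replicate 3 lay within the Trem2-/- range. Relative to WT cells, Trem2-/- cells gave a log2 difference of −0.38 (adjusted p = 0.000345 by edgeR, s.e. 0.07) with cholesterol and −0.20 (adjusted p = 0.0470, s.e. 0.08) without. The call with cholesterol held under every alternative. The call without it was lost when any library of the 7 except WT non-foamy replicate 3 was left out (adjusted p up to 0.176), with no filter on low counts (adjusted p = 0.0665) and in a fit of the compared libraries alone, and without that replicate it was −0.26 (adjusted p = 0.00424). Cholesterol gave 0.11 in WT and −0.08 in Trem2-/- cells, neither called. An antisense gene, *Gm45244*, covers 9.91% of its exonic bases and had at most 0.142 CPM in any library.

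Of the 3 acyl-CoA dehydrogenases of the set, which carry out the first oxidation of each round on chains of different length, 1 differed between the genotypes, 1 did not and 1 was not counted. *Acadvl* (chromosome 11, 70010183 to 70015411), for very long chains, was at 41.8, 43.5, 37.5 and 44.6 CPM in WT non-foamy and at 44.2, 44.9, 44.05 and 44.3 CPM in WT foamy libraries. It was at 48.6, 51.4 and 53.9 CPM in Trem2-/- non-foamy and at 52.4, 52.0, 52.2 and 48.9 CPM in Trem2-/- foamy libraries. Every Trem2-/- library lay above every WT library, and treatment did not separate the libraries of either genotype. It was higher in Trem2-/- cells by 0.29 on the log2 scale without cholesterol (adjusted p = 0.00117 by edgeR, s.e. 0.07) and by 0.21 with it (adjusted p = 0.0124, s.e. 0.06). Both calls held with each library left out and were lost with total counts alone (0.15 and 0.08, adjusted p = 0.186 and 0.464), and the call with cholesterol was also lost with no filter on low counts (adjusted p = 0.0559). *Dvl2*, on the opposite strand, covers 42.9% of the exonic bases of *Acadvl*, and the strand setting of the counting is not stated. *Dvl2* was at group means of 15.2 to 16.5 CPM and gave genotype differences of −0.02 and −0.05 (adjusted p = 0.926 and 0.794).

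*Acadm* (chromosome 3, 153922357 to 153944632), for medium chains, was at 144 to 164 CPM in WT non-foamy, 147 to 160.2 in WT foamy, 156 to 168 in Trem2-/- non-foamy and 152 to 172 CPM in Trem2-/- foamy libraries. The groups overlapped throughout. Its 95% intervals were among the narrowest of the set: −0.07 to 0.20 and −0.07 to 0.18 for Trem2-/- against WT without and with cholesterol, −0.13 to 0.12 for the WT response and −0.15 to 0.12 for the Trem2-/- response. *Acadl* (chromosome 1, 66830839 to 66863277), for long chains, had 0 counts in all 15 libraries, which allows a level of up to 0.00593 CPM (3 counts over all libraries; this limit covers counting error only). Whether its transcripts were absent or were present but not counted cannot be told from the count tables.

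*Hadha* (chromosome 5, 30118304 to 30155162) encodes the alpha subunit of the mitochondrial trifunctional protein, which hydrates and again oxidizes the chain. It was at 111, 109, 101 and 101 CPM in WT non-foamy and at 111, 119, 108 and 109 CPM in WT foamy libraries. Trem2-/- non-foamy libraries were at 143, 139 and 141 CPM and foamy ones at 144, 141, 135 and 125.5 CPM (replicate 4 lowest). All 7 Trem2-/- libraries lay above all 8 WT libraries. The genotype difference on the log2 scale was 0.42 (adjusted p = 1.09e-05 by edgeR, s.e. 0.06) in non-foamy and 0.28 (adjusted p = 0.000741, s.e. 0.06) in foamy cells. The first was called under every alternative and the second under all but total counts alone (0.16, adjusted p = 0.0986). Cholesterol gave 0.09 in WT (95% interval −0.04 to 0.21) and −0.05 in Trem2-/- cells (−0.18 to 0.08).

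*Hadhb* encodes the beta subunit of the same complex, and its gene model lies 85 bases from that of *Hadha* on the opposite strand. It was at 128 ± 1.29, 121 ± 7.01, 136 ± 6.14 and 138.5 ± 11.9 CPM (s.d., n = 4, 4, 3 and 4) in non-foamy WT, foamy WT, non-foamy Trem2-/- and foamy Trem2-/- cells. Its genotype difference was 0.09 (adjusted p = 0.283) without and 0.20 (adjusted p = 0.0201) with cholesterol, and the latter was lost when WT foamy replicate 1 or 2 or Trem2-/- foamy replicate 1 or 4 was left out (adjusted p up to 0.0736). The RPKM ratio of *Hadha* to *Hadhb* was 0.623 ± 0.0274 in WT non-foamy and 0.703 ± 0.0609 in WT foamy cells. In Trem2-/- cells it was 0.781 ± 0.0456 in non-foamy and 0.749 ± 0.0948 in foamy cells, and the libraries of these last 3 groups overlapped. The range of Trem2-/- foamy cells (0.630 to 0.862) also overlapped that of WT non-foamy cells (0.599 to 0.648).

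Within the set, *Acadvl* and *Hadha* had the most similar pattern: their log2 levels, each centred on its mean over the 15 libraries, differed by a root mean square of 0.0853. Among all tested genes the patterns most like that of *Cpt1a* were those of *Plin2* (root mean square difference 0.142 over 15 libraries, where the *Cpt1a* levels themselves spread by 0.381 around their mean), *Septin3* (0.177) and *Gm50105* (0.177). Group means of *Plin2*, which coats lipid droplets, were 195, 188, 208 and 310.2 CPM in non-foamy WT, foamy WT, non-foamy Trem2-/- and foamy Trem2-/- cells. Those of *Septin3* were 7.93, 7.75, 10.5 and 12.8 CPM, with a smaller step between the Trem2-/- groups than *Cpt1a* had. The patterns closest to that of *Ppard* were those of *Mib2* (0.0928), *Zkscan17* (0.0935) and *Speg* (0.0960), against a spread of 0.214 for *Ppard*. For *Pparg*, whose counts were few, the closest were *Gm14434* (0.705), *Gm7389* (0.874) and *Gm26881* (0.885), against a spread of 1.31. These are descriptions over libraries that share their groups and depth.

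Beside the 10 genes, 6 lists of other genes of the pathway were followed. Of 14 PPAR partners and coregulators, 11 were tested, and *Ppara*, *Rxrg* and *Ppargc1a* had 0, 0 and 2 reads over all libraries. None responded to cholesterol by edgeR or DESeq2 in either genotype, with 0 in WT and 1 in Trem2-/- cells at an unadjusted p under 0.05. Cholesterol called 2.8% of all tested genes in WT and 0.14% in Trem2-/- cells by edgeR. Without cholesterol 3 of the 11 were higher in Trem2-/- cells and 2 lower, where 43.6% of all tested genes were called. With cholesterol 1 was higher and 1 lower, where the share was 30.2%. *Rxra*, the common partner of the PPARs, was higher without cholesterol (0.42 on the log2 scale, adjusted p = 0.00136 by edgeR, s.e. 0.10) and with it (0.35, adjusted p = 0.00645, s.e. 0.09). It was at 31.5, 35.3, 31.9 and 38.2 CPM in WT non-foamy and at 45.5, 41.3 and 51.2 CPM in Trem2-/- non-foamy libraries, with no overlap. *Rxrb* (0.23) and the coactivator *Ncoa1* (0.33) were higher and *Pprc1* (−0.47), a PGC-1 family coactivator, was lower without cholesterol, and with total counts alone the split was 0 higher and 2 lower. The calls of *Rxrb* and *Ncoa1* were lost without Trem2-/- non-foamy replicate 1 (adjusted p = 0.0564 and 0.0574). With cholesterol *Rxra* was higher and the corepressor *Nrip1* lower (−0.41, adjusted p = 0.0164); with total counts alone 0 were higher and 3 lower, and *Nrip1* lost its call without WT foamy replicate 2 or Trem2-/- foamy replicate 4 (adjusted p up to 0.0646).

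Of 23 other PPAR targets, 11 were tested, and *Angptl4*, *Pdk4*, *Cidec*, *Vnn1*, *Cyp4a10*, *Cyp4a14* and *Fgf21* had 0 reads. In WT cells edgeR called none of the 11 for cholesterol, DESeq2 called 1 and 3 had an unadjusted p under 0.05. The shares of all tested genes that edgeR called for cholesterol were 2.8% in WT and 0.14% in Trem2-/- cells. In Trem2-/- cells *Plin2* (0.58 on the log2 scale, adjusted p = 0.000184 by edgeR, s.e. 0.07) and *Cd36*, a fatty acid and lipoprotein receptor, rose with cholesterol (0.67, adjusted p = 0.00167, s.e. 0.10). *Cd36* was at 17.97, 16.5, 17.96 and 16.5 CPM in WT non-foamy and at 13.8, 12.2, 13.1 and 15.8 CPM in WT foamy libraries. It was at 17.2, 16.02 and 15.6 CPM in Trem2-/- non-foamy and at 24.8, 27.8, 22.8 and 27.96 CPM in Trem2-/- foamy libraries. Every WT foamy library lay under every WT non-foamy one, and every Trem2-/- foamy library lay above the 11 others. The WT change of *Cd36* was −0.33 (adjusted p = 0.0547).

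The responses of the 2 genotypes differed for 3 of these 11 targets, all with the larger response in Trem2-/- cells, where 3.64% of all tested genes were called and 1.99% in this direction: *Cd36* by 0.99 (adjusted p = 0.000141, edgeR), *Plin2* by 0.63 (adjusted p = 0.000796) and *Hilpda*, a hypoxia-inducible lipid droplet protein, by 0.48 (adjusted p = 0.0247). The first 2 were called under every alternative. That of *Hilpda* was lost without WT foamy replicate 2, Trem2-/- non-foamy replicate 1 or Trem2-/- non-foamy replicate 2 (adjusted p up to 0.0764). The plot of the responses places these 3 genes beside *Cpt1a* and *Slc25a20*, at values above 0 in Trem2-/- cells and under 0 in WT cells.

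**Figure D4:**
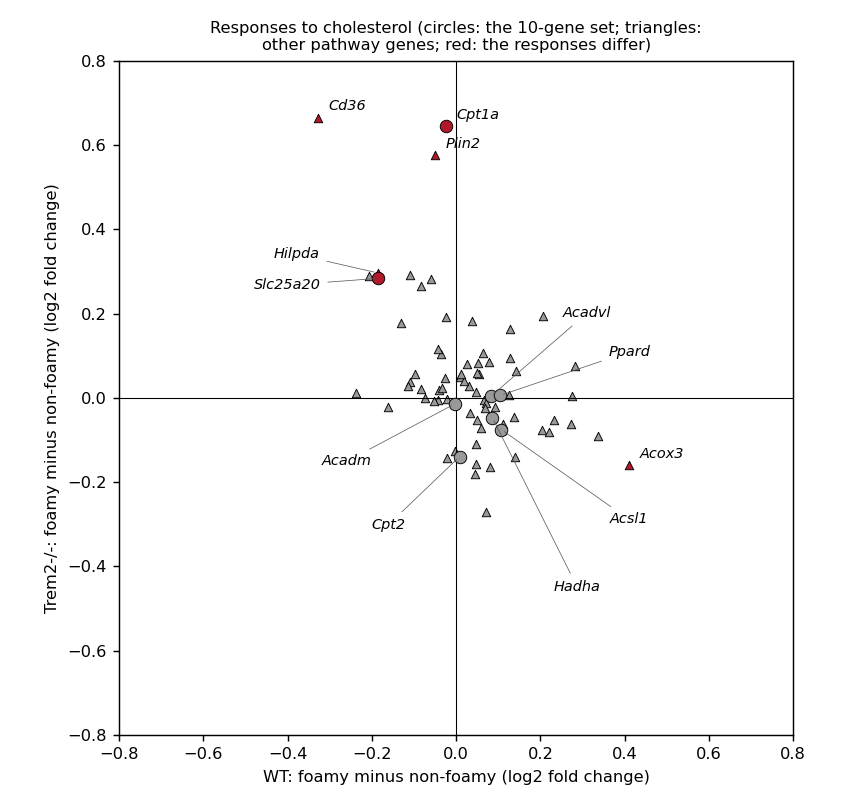
Log2 fold changes with cholesterol in WT (horizontal axis) and Trem2-/- cells (vertical axis) for 8 of the 10 genes (circles) and the tested genes of the 6 lists (triangles); *Pparg* is left out, red marks genes whose responses differed, and *Hilpda* is covered by *Slc25a20*. *Cd36*, *Cpt1a* and *Plin2* lie highest, at 0.67, 0.64 and 0.58 in Trem2-/- cells against −0.33, −0.02 and −0.05 in WT cells.

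Between the genotypes the same targets differed in both directions. Without cholesterol 2 of the 11 were higher in Trem2-/- cells, *Fabp4* (1.73 on the log2 scale, adjusted p = 1.82e-12 by edgeR, s.e. 0.09) and *Txnip* (0.69), and 2 were lower, *Lpl* (−0.50, adjusted p = 1.43e-06, s.e. 0.07) and *Ucp2* (−0.30); with total counts alone 2 were higher and 4 lower. *Fabp4*, a fatty acid binding protein of adipocytes and macrophages, was at 68.8, 58.0, 72.9 and 65.2 CPM in WT non-foamy and 228, 222 and 208 CPM in Trem2-/- non-foamy libraries. With cholesterol 6 were higher, *Fabp4* (1.45), *Cd36* (0.91), *Plin2* (0.72) and *Txnip* (0.51) by most, and *Lpl*, which releases fatty acids from lipoproteins, was lower (−0.44). With total counts alone that split of 6 and 1 was 5 and 1. Of all tested genes, 21% were called higher and 22.6% lower without cholesterol, and 14.3% and 15.9% with it. Among the 8 tested of 14 genes of acyl-CoA synthesis and the carnitine shuttle, the acyl-CoA synthetases *Acsl3* (−0.53, adjusted p = 4.12e-07, s.e. 0.06), *Acsl4* (−0.26) and *Acsl5* (−0.18) were lower in Trem2-/- cells without cholesterol, as *Acsl1* was, and *Acsl3* (−0.38) and *Acsl4* (−0.26) with it. The call of *Acsl5* was lost without WT non-foamy replicate 1 or Trem2-/- non-foamy replicate 1 or 3 (adjusted p up to 0.0714). No gene of this list was called higher in either genotype comparison. None was called for cholesterol by edgeR or DESeq2, with 1 in WT and 0 in Trem2-/- cells at an unadjusted p under 0.05. By edgeR, 2.8% of all tested genes were called for cholesterol in WT and 0.14% in Trem2-/- cells. *Cpt1b*, the muscle form of *Cpt1a*, had 2 reads in all.

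Of 18 other genes of mitochondrial beta-oxidation 17 were tested, and *Decr1* was listed at 0. Without cholesterol 8 were higher in Trem2-/- cells and 2 lower, and with cholesterol 10 were higher and 0 lower; with total counts alone these splits were 6 and 6, and 6 and 3. Of all tested genes, 21% were called higher and 22.6% lower without cholesterol, and 14.3% and 15.9% with it. *Acadsb* (0.63 without cholesterol, adjusted p = 3.05e-07 by edgeR, and 0.33 with it), *Eci2* (0.55 and 0.59), *Echs1* (0.44 and 0.36) and *Hsd17b10* (0.35 and 0.43), all enzymes of the matrix rounds, were higher in both. The lower ones without cholesterol were *Etfb* (−0.55), a subunit of the flavoprotein that takes electrons from the dehydrogenases, and *Acad9* (−0.30). Cholesterol changed none of the 17 in either genotype by edgeR, while DESeq2 called 1 in each and 2 in each had an unadjusted p under 0.05. It called 2.8% of all tested genes in WT and 0.14% in Trem2-/- cells by edgeR. Median log2 fold changes of the 17 were 0.16 without and 0.24 with cholesterol, against 0.02 and 0.00 over all tested genes.

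Of 13 genes of peroxisomal beta-oxidation 11 were tested. Without cholesterol 5 were higher in Trem2-/- cells and 0 lower, and with it 3 and 0; with total counts alone these splits were 3 and 5, and 1 and 1. Of all tested genes, 21% were called higher and 22.6% lower without cholesterol, and 14.3% and 15.9% with it. With total counts alone all called genes split into 1820 higher and 4379 lower without cholesterol, and 1115 and 3666 with it. *Abcd2*, a peroxisomal transporter of very long-chain acyl-CoA, was higher by 1.15 (adjusted p = 2.01e-10 by edgeR, s.e. 0.08) without and 0.88 with cholesterol. *Acox3*, an acyl-CoA oxidase, rose with cholesterol in WT cells (0.41, adjusted p = 0.0433) and differed in response (−0.57, adjusted p = 0.0483), but the WT call was lost without WT non-foamy replicate 1, 3 or 4 or WT foamy replicate 1 or 2 (adjusted p up to 0.162). The difference was called in 4 of 15 fits without 1 library, those without WT non-foamy replicate 2, WT foamy replicate 3 or 4 or Trem2-/- foamy replicate 2, and reached an adjusted p of 0.116 in the others. With total counts alone both calls were lost (adjusted p = 0.160 for the difference), and the WT call was also lost in a fit of the compared libraries alone. *Acox3* had group means of 56.5, 75.1, 91.6 and 82.0 CPM in non-foamy WT, foamy WT, non-foamy Trem2-/- and foamy Trem2-/- cells. Without cholesterol it was called higher in Trem2-/- cells under every alternative, by 0.62 to 0.75 as each library was left out. Of 11 genes of malonyl-CoA and AMPK control 9 were tested. None was called for cholesterol by either tool or at an unadjusted p under 0.05. For all tested genes, edgeR called 2.8% for cholesterol in WT and 0.14% in Trem2-/- cells. *Acaca*, the enzyme that makes malonyl-CoA, was lower in Trem2-/- cells without cholesterol (−0.55, adjusted p = 0.00278, s.e. 0.14) and with it (−0.53, adjusted p = 0.00307, s.e. 0.13). It was at 33.2, 35.7, 23.1 and 40.8 CPM in WT non-foamy and 20.4, 23.1 and 25.0 CPM in Trem2-/- non-foamy libraries, where WT non-foamy replicate 3 lay within the Trem2-/- range. *Acacb* had 30 reads in all. Without cholesterol 1 of the 9 was higher and 2 were lower, where 21% and 22.6% of all tested genes were. With cholesterol 1 was higher and 1 lower, where the shares were 14.3% and 15.9%. The AMPK subunit *Prkab1* was higher without cholesterol (0.40) and with it, where 9 of 15 alternatives called it. *Prkag1* was lower without cholesterol (−0.33). With total counts alone 0 of the 9 were higher and 3 lower without cholesterol, where 1820 and 4379 of the 14237 tested genes were. The call of *Prkag1* was lost without WT non-foamy replicate 2 or 3 or Trem2-/- non-foamy replicate 2 or 3 (adjusted p up to 0.110).

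**Figure D5:**
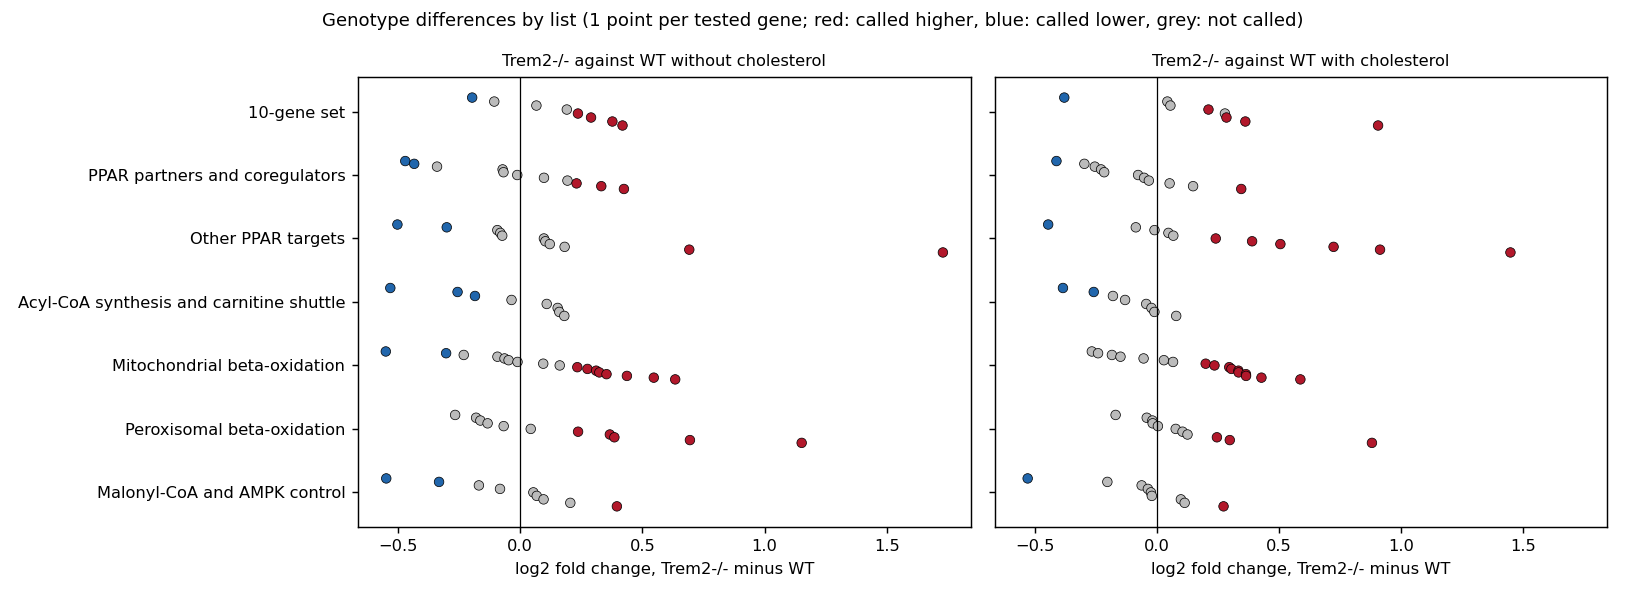
Log2 fold changes of Trem2-/- against WT without (left) and with cholesterol (right); each point is 1 tested gene, red called higher, blue called lower and grey not called, with *Pparg* left out. Called genes lie on both sides in most lists, and mitochondrial beta-oxidation has 8 higher and 2 lower on the left and 10 higher and 0 lower on the right.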

How the data were processed

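Bulk RNA-seq of 15 BV2 libraries was analysed. The deposited values are read counts per gene. The paper reports processing with CHURP, a pipeline of Trimmomatic for trimming, HISAT2 for alignment to GRCm38 and featureCounts for counting. The labels of the deposited counts name mm10 and no tool, so the program that made these counts is taken from the paper alone. How strand and multiply mapping reads were handled is not given in the sources used here. Totals of 23538963 to 41683825 counts per library limit the precision for genes of few reads, foremost *Pparg*. Counts were fitted here with edgeR 4.0.16 (quasi-likelihood test, R 4.3.3, TMM scaling, 1 model over the 4 groups). After the filterByExpr filter (minimum count 10), 14237 of 54390 genes, holding 99.97% of counts, were tested, and p-values were adjusted over them by the Benjamini-Hochberg method at a threshold of 0.05. The code was tested on simulated data. The biological coefficient of variation was 10.2%, and no replicate pair of the 21 within groups agreed within sampling noise (chi-square per gene 5.75 to 43.3). RPKM used the joined length of all annotated exons of each GENCODE gene model, and promoter windows came from RefSeq (GRCm38.p6).

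The genes and lists were chosen with earlier results of these data known. Named list genes were the called ones of mean level 1 CPM or more, at most 4 per direction, list and comparison, and the 3 genes most like *Cpt1a*, *Ppard* and *Pparg* by root mean square log2 difference. The alternatives were DESeq2 1.42.0, its size factors in edgeR, total counts alone, no filter, a minimum of 10 counts in every library, only the compared groups, the replicate number as a block, and each library left out. The values of 1 called gene of the lists are not reported here.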

Additional observations from a re-analysis of the deposited data

Results flagged for a closer look

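Of the 54 gene and group pairs of 4 libraries that were tested, 5 held a library far from the other 3 by Dixon's test, and chance flags about 1 in 20 such groups. WT foamy replicate 3 had 0.642 CPM of *Pparg*, above the other 3 libraries of its group. Trem2-/- foamy replicate 4 had 48.86 CPM of *Acadvl* and 19.9 CPM of *Acaca*, under the others, and 236.8 CPM of *Fabp4*, above them. WT non-foamy replicate 3, which also stood apart on the second principal component, had 40.89 CPM of *Acsl1*, under the others.

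The response to cholesterol differed between the genotypes, by the interaction term in edgeR, for 2 genes of the set and 4 of the lists. The difference (Trem2-/- minus WT, log2) was 0.67 for *Cpt1a* (adjusted p = 0.000505), 0.47 for *Slc25a20* (adjusted p = 0.0465), 0.63 for *Plin2* (adjusted p = 0.000796), 0.99 for *Cd36* (adjusted p = 0.000141), 0.48 for *Hilpda* (adjusted p = 0.0247) and −0.57 for *Acox3* (adjusted p = 0.0483).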

How the results depend on the processing

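The number of the 9 tested genes called was 0 for the WT response, 1 for the Trem2-/- response, 5 for genotype without and 5 with cholesterol, and 2 for the difference of the responses. With total counts alone the last 3 became 2, 2 and 1, and with no filter on low counts genotype without cholesterol became 3, genotype with it 4 and the difference 1. With only the compared groups, genotype gave 4 without and 6 with cholesterol. The cause of these losses was not tested. Without 1 library, genotype without cholesterol ranged from 3 to 5 and the difference from 1 to 2, while the other counts stayed at 0, 1 and 5. *Cpt1a* kept its Trem2-/- response, genotype difference with cholesterol and difference of the responses under every alternative run, *Acsl1* its genotype difference with cholesterol and *Hadha* its difference without. No called value changed sign. Among values not called, those of *Acadm* for genotype became −0.07 in both treatments and that of *Cpt2* with cholesterol −0.08 with total counts alone, and the Trem2-/- response of *Ppard* reached −0.12 without 1 library.

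Replicate numbers did not pair the libraries (correlations of deviations from −0.0867 to 0.1003 over 21 pairs). With the replicate block the difference of the responses was called for 1 gene (*Slc25a20* was lost), the other counts were 0, 1, 5 and 5, and *Acox3* lost its difference too. Over all genes, DESeq2 called 881 for the WT response and 56 for the Trem2-/- response against 399 and 20 in edgeR, and 985 against 518 for the difference. No filter gave 607 and 61 for the responses, and the block gave 294 for the difference. Without 1 library these counts ranged from 146 to 526 for WT, 10 to 18 for Trem2-/- and 201 to 661 for the difference. Of 63 called gene and comparison pairs in the 6 lists, 39 were called under every alternative, 9 were lost with total counts alone and no other, and 15 under at least 1 other. Depth limits *Pparg*, and *Acadl* could not be fitted.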
